A study of Arabidopsis thaliana with 6 samples.

Results

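The chlorophyll synthesis enzymes described here are 10 genes of the tetrapyrrole pathway, found by their gene identifiers among the 32678 genes of the deposited count table. They are HEMA1 (AT1G58290), GUN4 (AT3G59400), CHLH (AT5G13630), CHLD (AT1G08520), CHLI1 (AT4G18480), CHLM (AT4G25080), CRD1 (AT3G56940), PORB (AT4G27440), PORC (AT1G03630) and CAO (AT1G44446). The sequenced RNA came from Arabidopsis thaliana of the wild type, grown for 7 days on plates of MS, a mineral culture medium. The plants then spent 12 h with melatonin, an indoleamine made from tryptophan, at 0 µM (the control), 100 µM or 1000 µM, and each of these 3 groups had 2 libraries. The tissue is rosette leaves per the labels, although the series title speaks of root growth. Whether a group's libraries stem from different plants is not stated, so a p-value here reflects only library-to-library spread, part or all of which may be technical. All 10 genes were abundant enough to be tested, with 175 to 3949 counts per gene and library.

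Chlorophyll is built in the chloroplast from glutamate. Glutamyl-tRNA reductase, the HEMA1 product, controls the entry into 5-aminolevulinic acid, which is turned into protoporphyrin IX. Mg chelatase, made of CHLH, CHLD and CHLI and stimulated by GUN4, puts magnesium into this ring and so sends it to chlorophyll, whereas ferrochelatase puts in iron and sends it to heme. CHLM then adds a methyl group, the cyclase that contains CRD1 closes the extra ring, the light-dependent oxidoreductases PORB and PORC reduce protochlorophyllide, and CAO makes chlorophyll b from the a form. The pathway is known for tight control by light, by GLK factors, by HY5 and by PIF proteins, since its free intermediates are phototoxic.

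Promoters of the members were read, as a description only, for short sequences known from light-regulated plant genes. The last 100 bases before the annotated start are printed for the members with a motif in that stretch and no other annotated gene there, 5′ to 3′ on the gene's strand, from RefSeq's TAIR10.1 assembly. They are chr3:21076405-21076504 (plus strand) for CRD1, chr4:13725446-13725545 (plus strand) for PORB and chr1:16851272-16851371 (minus strand) for CAO. Capitals mark the G-box CACGTG, a core bound by HY5 and PIF proteins, in CRD1 and CAO, and CCAATC, a motif linked to GLK factors, in PORB.
CRD1: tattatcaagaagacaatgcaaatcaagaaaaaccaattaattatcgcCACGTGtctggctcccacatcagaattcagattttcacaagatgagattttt
PORB: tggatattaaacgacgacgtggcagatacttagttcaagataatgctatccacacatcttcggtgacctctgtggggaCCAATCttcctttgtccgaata
CAO: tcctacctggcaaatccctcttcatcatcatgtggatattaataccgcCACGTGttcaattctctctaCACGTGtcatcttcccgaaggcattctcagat

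The G-box of CRD1 and the farther one of CAO both lay 52 to 47 bases before the start, and CAO had another at 32 to 27 bases. Over the full 250 bases before the start, searched on both strands, 2 of the 10 members held CACGTG, against 5.91% of 31911 promoters of the same length. CCAATC was in 2 members, PORB (219 to 214 and 22 to 17 bases) and GUN4 (13 to 8 bases, inside the neighbouring gene AT3G59410), against 10.4% of promoters. The evening element AAAATATCT was in PORB (142 to 134 bases; 2.22% of promoters), and the I-box GATAAG was in 0 members (12.6% of promoters). The other 6 members held none of these 4 motifs in that window, among them CHLH, CHLM and PORC. A match is a description of the letters and not a bound site.

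At 1000 µM melatonin, 8 of the 10 genes fell against the control and 0 rose, with levels 18.6% to 34.8% lower. The genes that fell were HEMA1, the 3 Mg chelatase subunits CHLH, CHLD and CHLI1, CHLM, PORB, PORC and CAO. CRD1 and GUN4 did not pass the test. At 100 µM 0 of the 10 passed it in either direction, and 0 did so at an unadjusted p under 0.05 with edgeR or at an adjusted p under 0.05 with DESeq2. Between the doses 6 of the 10 were lower at 1000 µM. All changes were tested with edgeR's quasi-likelihood test over all 18380 tested genes, two-sided, with Benjamini-Hochberg adjusted p and a threshold of 0.05.

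Many other genes moved too. Of all tested genes, 29.6% were called at 1000 µM against the control (14.5% lower and 15.2% higher), 16% between the doses (7.3% lower and 8.65% higher) and 3.32% at 100 µM against the control (1.53% lower and 1.79% higher). Among the 6972 genes at least as abundant as CAO, the least abundant member, 18.9% were called lower and 24.2% higher at 1000 µM against the control, 10.8% lower and 14.4% higher between the doses, and 2.62% lower and 3.37% higher at 100 µM. Without overlap between the libraries of 2 groups, 9 members were lower and 1 higher at 1000 µM than in the control, beside 33.1% and 31.5% of all tested genes. Between the doses 9 were lower and 0 higher (27.6% and 27.6%), and at 100 µM 3 were lower and 4 higher (25% and 25.4%). The members' median log2 change was -0.02 at 100 µM, -0.41 at 1000 µM and -0.34 between the doses, beside medians of -0.005, -0.013 and -0.002 over all tested genes. In both comparisons with 1000 µM the fallers therefore made up a larger share of the members than of all tested genes, which is a description of 10 chosen genes. The 3 comparisons share libraries, so their values are not independent.

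**Figure D1:**
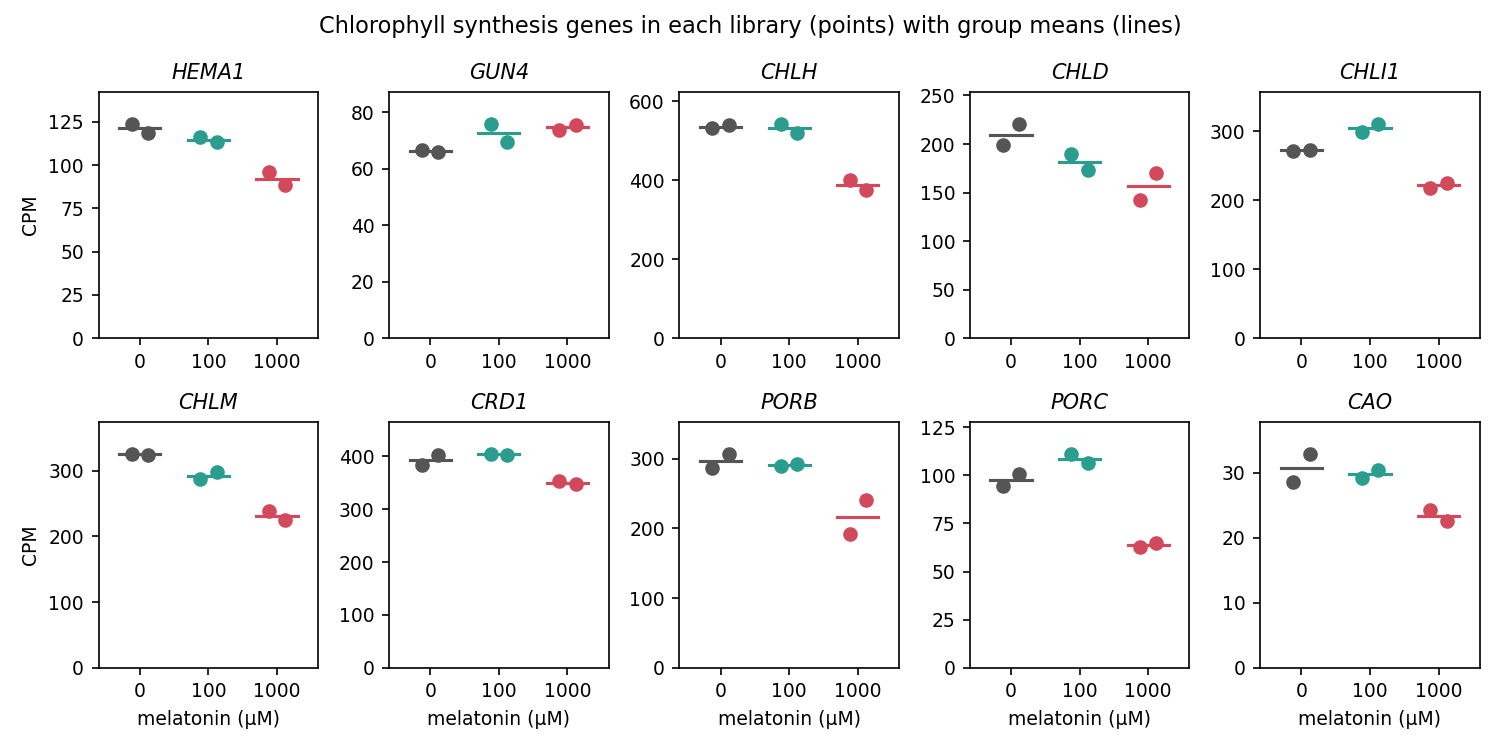
Expression of the 10 chlorophyll synthesis enzymes in CPM (TMM-scaled, vertical axis) in each library by melatonin dose in µM (horizontal axis); points are libraries and horizontal lines are group means (n = 2). At 1000 µM both libraries lie below both controls for 9 genes, and for GUN4 they lie above.

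Levels are given as CPM, each gene's counts over the TMM-adjusted library total, in the order of the replicate numbers, and as mean ± SD with n = 2. HEMA1, the entry enzyme, stood at 123.6 and 118.6 CPM in the control libraries, 116.1 and 113.2 with 100 µM, and 95.8 and 88.2 with 1000 µM. Its groups did not overlap at either step. It fell from 121.1 ± 3.6 to 92.0 ± 5.4 CPM at 1000 µM, a log2 change of -0.40 ± 0.09 (SE, adjusted p = 0.00398), and by a log2 change of -0.32 ± 0.09 between the doses (adjusted p = 0.0284). The step from the control to 100 µM did not pass (log2 change -0.08 ± 0.09, adjusted p = 0.764). Without control replicate 1 the adjusted p at 1000 µM was 0.0665. Between the doses it was 0.109 with DESeq2, 0.06 with only the 2 groups compared, 0.068 and 0.0674 without control replicate 1 and 2, and 0.235 and 0.152 without 100 µM replicate 1 and 2.

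CHLH, the large porphyrin-binding subunit of Mg chelatase, was the most abundant member in CPM. It had 532.8 and 538.8 CPM in the control libraries, 542.1 and 520.2 with 100 µM, and 400.6 and 375.1 with 1000 µM. The control and 100 µM libraries overlapped and both 1000 µM libraries lay well below them. The log2 change at 1000 µM was -0.47 ± 0.09 (27.6% lower, adjusted p = 0.000794), and between the doses -0.45 ± 0.09 (adjusted p = 0.00204, and 0.0791 without 100 µM replicate 1). At 100 µM the log2 change was -0.01 ± 0.09 (adjusted p = 0.967).

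CHLD and CHLI1 encode the subunits that form the ATPase motor of Mg chelatase. CHLD stood at 198.6 and 220.5 CPM in the control libraries, 189.8 and 173.4 with 100 µM, and 142.3 and 170.5 with 1000 µM. Its libraries stepped down with dose without overlap, but the 1000 µM libraries differed from each other 1.2-fold. CHLD fell by a log2 change of -0.42 ± 0.10 at 1000 µM (25.3% lower, adjusted p = 0.00526), or -0.34 with an adjusted p of 0.104 without control replicate 2. Its difference between the doses did not pass (-0.22 ± 0.10, adjusted p = 0.187). It passed without 1000 µM replicate 2 (-0.34, adjusted p = 0.00335), and was -0.09 without 1000 µM replicate 1 (0.55) and -0.14 without 100 µM replicate 1 (0.648). At 100 µM CHLD had a log2 change of -0.21 ± 0.10 (adjusted p = 0.363), and it passed when 1000 µM replicate 1 or 2 was left out (adjusted p = 0.0499 and 0.0478).

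CHLI1 stood at 271.7 and 272.9 CPM in the control libraries, 299.7 and 310.4 with 100 µM, and 218.1 and 225.4 with 1000 µM. The 100 µM libraries were the highest and the 1000 µM libraries the lowest. The value at 100 µM did not pass the test against the control (log2 change 0.16 ± 0.09, adjusted p = 0.403). CHLI1 fell at 1000 µM by -0.30 ± 0.09 against the control (18.6% lower, adjusted p = 0.0173) and by -0.46 ± 0.09 against 100 µM (adjusted p = 0.00151). The first of these calls was lost with only the 2 groups compared (adjusted p = 0.0575), without either control (0.133 and 0.142 for replicates 1 and 2 left out) and without either 100 µM library (0.0555 and 0.051). The second was lost without 100 µM replicate 2 (0.0526).

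GUN4, which binds porphyrins and activates Mg chelatase, was the member that did not go down. It stood at 66.8 and 66.0 CPM in the control libraries, 75.8 and 69.3 with 100 µM, and 73.8 and 75.6 with 1000 µM. The treated libraries all lay above the controls and overlapped each other. The log2 change was 0.13 ± 0.10 at 100 µM (adjusted p = 0.602) and 0.17 ± 0.10 at 1000 µM (adjusted p = 0.215), neither of which passed. Of GUN4's exonic bases, 73% are overlapped by AT3G59410 on the other strand. Whether the counting used strand is not given in the sources used here. How reads in the shared bases were assigned or left out is therefore not known. For the other members the overlap was 0 (HEMA1 and CHLH) or 1.23% to 9.85%.

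CHLM, the Mg-protoporphyrin IX methyltransferase, stood at 326.0 and 324.0 CPM in the control libraries, 287.5 and 297.5 with 100 µM, and 238.4 and 225.2 with 1000 µM. It was lower at each step, with no overlap between groups. Against the control the log2 change was -0.49 ± 0.09 at 1000 µM (28.7% lower, adjusted p = 0.000456) and -0.15 ± 0.09 at 100 µM, where it did not pass (adjusted p = 0.455). The log2 change between the doses, -0.34 ± 0.09, passed (adjusted p = 0.0153), but not without either control (0.0516 and 0.0511 for replicates 1 and 2 left out) or either 100 µM library (0.131 and 0.177). HEMA1, CHLD and CHLM were the 3 members whose libraries went down at both steps with no overlap, a pattern that 8.68% of all tested genes had.

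CRD1, the diiron subunit of the cyclase, stood at 384.0 and 402.1 CPM in the control libraries, 405.0 and 402.6 with 100 µM, and 352.5 and 347.0 with 1000 µM. Both 1000 µM libraries lay below all others. The log2 change at 1000 µM was -0.17 ± 0.09 (adjusted p = 0.164), with a 95% interval of -0.36 to 0.02 on the log2 scale, so it did not pass the test. Between the doses its log2 change was -0.21 ± 0.09 (adjusted p = 0.128), and it passed without 1000 µM replicate 1 or 2 (adjusted p = 0.0302 and 0.0497).

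The oxidoreductases PORB and PORC, which turn protochlorophyllide into chlorophyllide in the light, both fell at 1000 µM. PORC had 94.4 and 100.4 CPM in the control libraries, 111.2 and 106.2 with 100 µM, and 62.5 and 64.6 with 1000 µM. Its 100 µM libraries were above the controls, without passing the test (log2 change 0.16 ± 0.09, adjusted p = 0.47), and its 1000 µM libraries were far below both groups. PORC had the largest fall of the members, with a log2 change of -0.62 ± 0.10 against the control (34.8% lower, adjusted p = 0.000111) and -0.77 ± 0.10 against 100 µM (adjusted p = 2.09e-05). Both calls held in all 13 alternative analyses.

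PORB had 286.4 and 307.1 CPM in the control libraries, 289.4 and 292.2 with 100 µM, and 192.1 and 240.9 with 1000 µM. The control and 100 µM libraries overlapped, and the 1000 µM libraries were lower but differed 1.25-fold from each other, the widest pair of any member. PORB fell by -0.45 ± 0.11 on the log2 scale at 1000 µM (27.0% lower, adjusted p = 0.00334) and by -0.43 ± 0.11 between the doses (adjusted p = 0.00992). The log2 change against the control was -0.62 without 1000 µM replicate 2 and -0.30 without replicate 1, and its adjusted p was 0.0628 without control replicate 2. Between the doses it was -0.59 without 1000 µM replicate 2 and -0.27 without replicate 1, and that call was lost without 100 µM replicate 1 or 2 (0.116 and 0.114). The remaining oxidoreductase gene, PORA (AT5G54190), which is known from etiolated seedlings, had 0 to 4 counts per library and was not tested.

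CAO, the oxygenase that makes chlorophyll b, was the least abundant member, at 28.6 and 32.9 CPM in the control libraries, 29.2 and 30.4 with 100 µM, and 24.2 and 22.6 with 1000 µM. The 1000 µM libraries lay below the other 4, which overlapped. The log2 change at 1000 µM was -0.40 ± 0.13 (24.1% lower, adjusted p = 0.0269), and between the doses it was -0.35 ± 0.13, which did not pass (adjusted p = 0.0795) except with upper quartile scaling (0.0454). The call against the control was lost with DESeq2 (0.174), with only the 2 groups compared (0.0549), without control replicate 2 (0.257), without 100 µM replicate 1 (0.0527) and without 1000 µM replicate 2 (0.077).

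**Figure D2:**
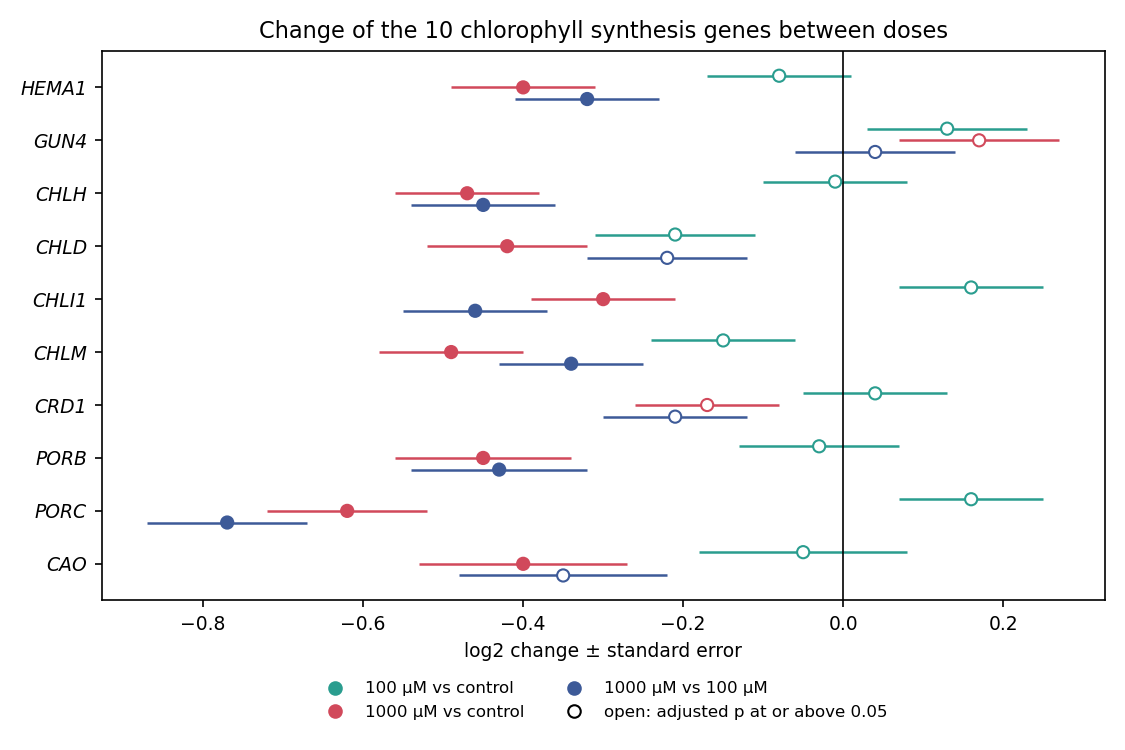
Log2 change of each member in the 3 comparisons (horizontal axis, log2 scale), with points for the edgeR estimate and lines for ± SE; filled points have an adjusted p under 0.05. At 100 µM against the control all points lie between -0.21 and 0.16, and at 1000 µM against the control the 8 filled points lie between -0.62 and -0.30.

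Levels of different genes were compared as CPM per kb of exon. In the controls CRD1 was highest, at 263.2 CPM per kb, followed by CHLM (190.4), PORB (180.8), CHLI1 (169.3), CHLH (112.6), CHLD (79.3), PORC (54.5), HEMA1 (52.4), GUN4 (51.3) and CAO (13.3). The control libraries of PORC, HEMA1 and GUN4 overlapped with those of their neighbours in that order, and the other neighbours did not overlap. Some members share a complex or a step, and their ratios per library, chosen after the values were seen, are given with no test. CHLH over GUN4 was 2.17 and 2.22 in the control libraries, 1.95 and 2.04 with 100 µM, and 1.48 and 1.35 with 1000 µM. It was thus lowest at the highest dose. GUN4's level per kb is uncertain, since AT3G59410 overlaps 73% of the exonic bases it is divided by. The same limit holds for its place in the order above and for the size of this ratio. CHLH over CHLD was 1.49 and 1.36, 1.59 and 1.67, and 1.56 and 1.22 at the rising doses. Both 100 µM libraries were above the others, and those of the control and 1000 µM overlapped. PORB over PORC was 3.3 and 3.33 in the control libraries, 2.83 and 3 with 100 µM, and 3.35 and 4.06 with 1000 µM, lowest at 100 µM.

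Summed over the 10 members, the level was 2313 and 2383.2 CPM in the control libraries, 2346 and 2315.5 with 100 µM, and 1800.2 and 1835.1 with 1000 µM. Library totals ranged from 6410046 to 7723602 counts. Against unscaled library totals, the pair of 1000 µM libraries was the least alike. Its chi-square per degree of freedom over all genes was 5.43, against 1.92 in the controls and 1.81 at 100 µM. Over the members the 1000 µM pair had 14.2, where PORB contributed most. These values also hold differences that TMM scaling removes, with factors of 0.945 and 1.026 for the 1000 µM libraries. The 10 leaf markers were abundant, summing to 29016.2 and 31378.7 CPM in the control libraries, 27946.7 and 27053.2 with 100 µM, and 19784.1 and 17897.2 with 1000 µM, and 8 of the 10 fell at 1000 µM (median log2 change -0.60). Of 12 root markers, 11 were tested and 6 fell at 1000 µM (median log2 change -0.68), and their sum was 3245.3 and 3369.3, 3110.8 and 3170.9, and 2042.2 and 2086.7 CPM at the rising doses. Most of that was PYK10, a beta-glucosidase of roots and hypocotyls, and without it the sums were 73.4 and 60.2, 55.1 and 58.3, and 38.9 and 39 CPM. CASP5, a marker of the root endodermis, was at 0 in 2 libraries. The summed levels of both lists, carried by RBCS1A, RBCS3B and RCA in leaf and by PYK10 in root, were lower at 1000 µM as were most members, and their part in the members' falls was not tested. Single markers went the other way without passing against the control, LHCB1.4 with a log2 change of 0.34 (adjusted p = 0.113) and WOX5 with 1.46 (adjusted p = 0.0904), and LHCB1.4 was higher at 1000 than at 100 µM (0.55, adjusted p = 0.0241). These were named after their values were seen. LHCB1.4 stood at 125.5 ± 41.3 CPM with 1000 µM, overlapping the control libraries. Of its stretches of 50 exonic bases, 13.7% are repeated in the genome (20.5% for LHCB1.1 and 16.5% for RBCS3B), so reads from there may not be told apart. In whole-tissue RNA, fewer cells of a type and less RNA per cell cannot be told apart.

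The rest of the tetrapyrrole pathway was followed in lists of 17 genes of the steps from glutamate to protoporphyrin IX, 8 other genes of the magnesium branch, 3 genes of the return from chlorophyll b to a, and 9 genes of heme, bilin and siroheme. Together with 15 regulators they make 52 genes, of which 47 were tested. Of all tested genes, 14.5% were called lower and 15.2% higher at 1000 µM against the control. In the other magnesium branch genes 4 of 7 tested fell at 1000 µM and 0 rose (median log2 change -0.28). From glutamate to protoporphyrin IX 2 of 15 tested fell and 1 rose (median -0.17), shares no larger than those of all tested genes. In the heme, bilin and siroheme list 2 of 7 rose and 2 fell (median 0.10). In the return to chlorophyll a 1 of 3 rose and 0 fell (median -0.12), and the 2 that did not pass had log2 changes below 0, down to -0.19. At 100 µM 0 genes of these 4 lists fell and 1 rose, beside 1.53% and 1.79% of all tested genes. With DESeq2 the counts at 1000 µM were 2 lower in the magnesium branch, 0 in the early steps, 1 higher and 0 lower in the heme list, and 1 higher in the return to chlorophyll a.

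In the magnesium branch the genes that fell at 1000 µM were CHLI2, LIL3:1, DVR and CHLP. Genes on the other strand overlap 28.2% of LIL3:1's exonic bases (AT4G17610), 16.2% of CHLP's (AT1G74480) and 8.87% of CHLI2's (AT5G45940). As for GUN4, how reads in these shared bases were assigned is not known. CHLI2 (AT5G45930), the second gene for the CHLI subunit, had 53.3 and 54.3 CPM in the control libraries, 49.7 and 56.8 with 100 µM, and 36.5 and 41.9 with 1000 µM (log2 change -0.46, adjusted p = 0.0061, and 0.0549 without control replicate 2). CHLI1 over CHLI2 per kb was 4.86 and 4.79 in the control libraries, 5.75 and 5.22 with 100 µM, and 5.7 and 5.13 with 1000 µM. The doses overlapped and both lay above the controls, with log2 changes at 1000 µM of -0.30 and -0.46 for the 2 genes. DVR (AT5G18660), the divinyl reductase, had a log2 change of -0.35 (adjusted p = 0.0185), CHLP (AT1G74470), the geranylgeranyl reductase that supplies the phytol tail, -0.28 (0.0248), and LIL3:1 (AT4G17600), a light-harvesting-like protein that binds CHLP, -0.31 (0.0173). These 3 calls held in 10, 7 and 10 of 13 alternatives, with adjusted p up to 0.131, 0.232 and 0.149. For DVR and LIL3:1 they were lost with DESeq2 and without control replicate 1 or 2. For CHLP they were lost with a replicate block, with only the 2 groups compared, and without either control or either 100 µM library.

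**Figure D3:**
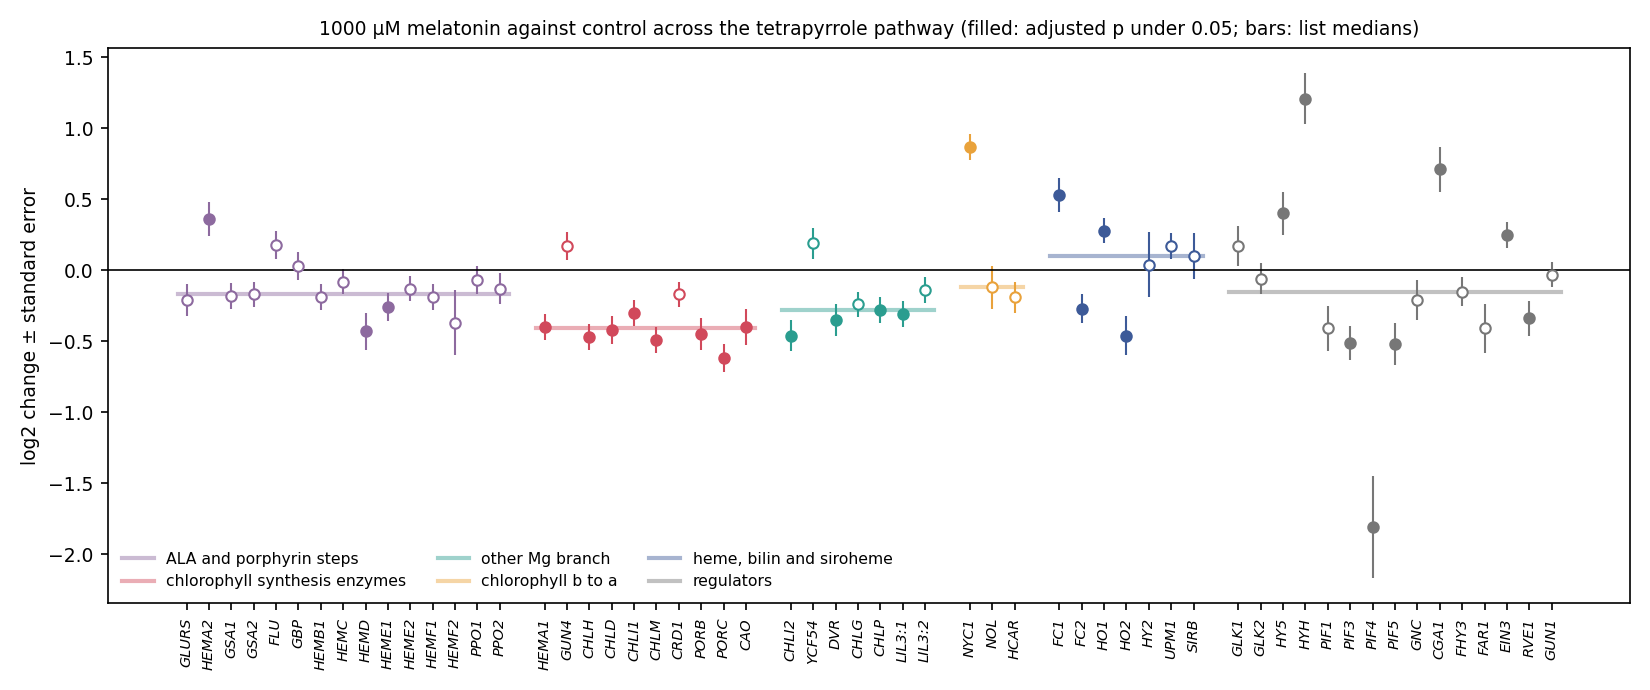
Log2 change at 1000 µM against the control (vertical axis, points with lines for ± SE) of the members, the other tested tetrapyrrole genes and the regulators (horizontal axis, grouped by list, with horizontal bars at the list medians); filled points have an adjusted p under 0.05. The members' median is -0.41 and that of the other magnesium branch genes -0.28, while NYC1 (0.87), FC1 (0.53), HEMA2 (0.36) and HO1 (0.28) are the filled tetrapyrrole genes above 0.

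In the early steps HEMD (AT2G26540), uroporphyrinogen III synthase, fell by -0.43 on the log2 scale at 1000 µM (adjusted p = 0.019), and HEME1 (AT3G14930), uroporphyrinogen decarboxylase, by -0.26 (adjusted p = 0.049). HEMD's call held in 9 and HEME1's in 3 of 13 alternatives, with adjusted p up to 0.141 and 0.29. HEMD's call was lost with DESeq2, without either control and without 1000 µM replicate 1, while HEME1's was kept with upper quartile scaling, with organelle genes left out and without 1000 µM replicate 1. HEMA2 (AT1G09940), the glutamyl-tRNA reductase gene known mainly from non-photosynthetic tissue, went the other way from HEMA1. It had 46.8 and 38.9 CPM in the control libraries, 39.8 and 42.8 with 100 µM, and 59.0 and 51.1 with 1000 µM, a log2 change of 0.36 ± 0.12 (adjusted p = 0.0302). The 1000 µM libraries lay above the other 4, but the call held in only 6 of 13 alternatives, with an adjusted p up to 0.321. It was lost with upper quartile scaling, DESeq2 and only the 2 groups compared, and without control replicate 2, 100 µM replicate 1 or 2, or 1000 µM replicate 1. HEMA1 over HEMA2 per kb was 2.52 and 2.9 in the control libraries, 2.78 and 2.52 with 100 µM, and 1.55 and 1.64 with 1000 µM.

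At the branch point the ferrochelatase genes moved in opposite directions at 1000 µM against the control. With 100 µM both had a log2 change of 0.19, which did not pass (adjusted p = 0.527 for FC1 and 0.365 for FC2). FC1 (AT5G26030), known from all tissues and as stress-responsive, had 47.5 and 48.7 CPM in the control libraries, 55.1 and 54.6 with 100 µM, and 79.1 and 59.8 with 1000 µM, and it rose by 0.53 ± 0.12 on the log2 scale (adjusted p = 0.00363). Its call held in all 13 alternatives, with log2 changes from 0.32 to 0.73, the ends being those without 1000 µM replicate 1 and 2. FC2 (AT2G30390), the ferrochelatase of green tissue, had 117.1 and 129.3, 137.4 and 143.5, and 98.3 and 105.4 CPM. It was highest at 100 µM and fell at 1000 µM by -0.27 ± 0.10 against the control (adjusted p = 0.0388). The call held in 5 of 13 alternatives, with an adjusted p up to 0.338. It was lost with DESeq2, the replicate block and only the 2 groups compared, and without either control, either 100 µM library or 1000 µM replicate 1. CHLH over FC1 per kb was 4.85 and 4.79 in the control libraries, 4.26 and 4.12 with 100 µM, and 2.19 and 2.71 with 1000 µM. It stepped down with dose without overlap, but it leaves out FC2, the more abundant ferrochelatase gene. FC2 over FC1 per kb was 2.51 and 2.71, 2.54 and 2.68, and 1.27 and 1.79 at the rising doses. CHLH and FC2 had means of 112.6 and 61.0 CPM per kb in the controls. With 100 µM the means were 111.7 and 69.5, and with 1000 µM 81.5 and 50.4.

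Beyond ferrochelatase, HO1 (AT2G26670), the main plastid heme oxygenase, rose by 0.28 on the log2 scale at 1000 µM (adjusted p = 0.0261) and HO2 (AT2G26550), its relative, fell by -0.46 (adjusted p = 0.0212). HO1's call held in 6 of 13 alternatives (adjusted p up to 0.167) and HO2's in 9 (up to 0.153). HO1's was lost with upper quartile scaling, DESeq2 and only the 2 groups compared, and without either control or either 100 µM library, and HO2's with DESeq2, without either control and without 1000 µM replicate 1. NYC1 (AT4G13250), the chlorophyll b reductase that starts the return of chlorophyll b to a, had 151.4 and 134.7 CPM in the control libraries, 208.0 and 217.3 with 100 µM, and 262.0 and 260.9 with 1000 µM. Its libraries rose at each step without overlap, by 0.57 ± 0.09 at 100 µM (adjusted p = 0.00192) and 0.87 ± 0.09 at 1000 µM (adjusted p = 1.68e-06) on the log2 scale. The first call was lost without control replicate 2 (0.108) and without 100 µM replicate 1 or 2 (0.0568 and 0.105), and the second held in all 13 alternatives. NYC1 over CAO per kb, the pair that works in opposite directions between chlorophyll a and b, went from 5.93 and 4.59 in the controls to 7.99 and 8.02 at 100 µM and 12.14 and 12.95 at 1000 µM.

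**Figure D4:**
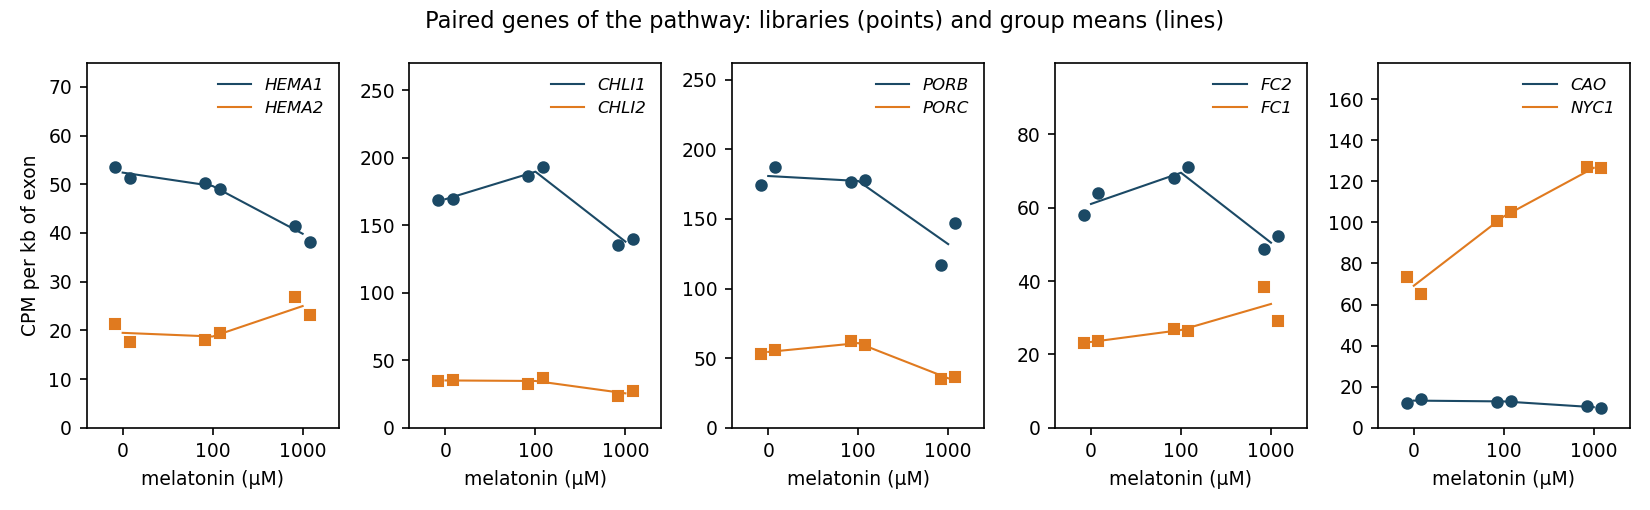
Levels in CPM per kb of exon (vertical axis, from 0) of 5 pairs of genes by melatonin dose in µM (horizontal axis, doses evenly spaced), with points for libraries (n = 2) and lines through the group means; the pairs were chosen after the values were seen. The means of HEMA1 and HEMA2, FC2 and FC1, and CAO and NYC1 move in opposite directions from 100 to 1000 µM. Between these doses FC1 and CAO did not pass (edgeR, adjusted p = 0.0719 and 0.0795). The means of CHLI1 and CHLI2, and of PORB and PORC, are lowest at 1000 µM.

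Of the 15 regulators, all tested, 4 rose and 4 fell at 1000 µM (median log2 change -0.15), and 2 rose and 1 fell at 100 µM. Over all tested genes, 15.2% rose and 14.5% fell at 1000 µM, and 1.79% rose and 1.53% fell at 100 µM. With DESeq2 the counts at 1000 µM were 2 and 2. GLK1 (AT2G20570) and GLK2 (AT5G44190), the factors best known for switching on chlorophyll synthesis genes, did not pass at 1000 µM, with log2 changes of 0.17 ± 0.14 (adjusted p = 0.376) and -0.06 ± 0.11 (adjusted p = 0.735). GLK1 had 22.2 and 25.8 CPM in the control libraries, 18.3 and 18.9 with 100 µM, and 28.6 and 25.5 with 1000 µM. It was lowest at 100 µM, without passing against the control (adjusted p = 0.216), and higher at 1000 than at 100 µM (log2 change 0.54, adjusted p = 0.0144), a call lost with DESeq2 (0.0934) and without 100 µM replicate 1 or 2 (0.127 and 0.0934).

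HYH (AT3G17609), the close homologue of HY5, rose from 7.0 and 8.2 CPM in the controls to 13.5 and 13.0 at 100 µM and 17.4 and 17.7 at 1000 µM. Its log2 changes were 0.81 ± 0.19 (adjusted p = 0.0219) and 1.21 ± 0.18 (adjusted p = 5.32e-05). CGA1 (AT4G26150), a GATA factor known to promote greening, rose at both doses by nearly the same measured amount, 0.77 ± 0.17 (adjusted p = 0.0145) and 0.71 ± 0.16 (adjusted p = 0.00349). PIF4 (AT2G43010), of the PIF family that includes repressors of chlorophyll synthesis, had 6.7 and 5.0, 1.9 and 2.6, and 2.1 and 1.3 CPM, and fell by -1.35 ± 0.35 (adjusted p = 0.0404) and -1.81 ± 0.36 (adjusted p = 0.000947). At 100 µM these 3 calls were lost without any one of the 4 libraries compared, with adjusted p of 0.0867 to 0.234 for HYH, 0.0921 to 0.224 for CGA1 and 0.0901 to 0.37 for PIF4. HYH and CGA1 also lost that call with DESeq2, and PIF4 with the replicate block, while DESeq2 gave no adjusted p for PIF4 there. At 1000 µM the calls of all 3 held in 13 of 13 alternatives.

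PIF3 (AT1G09530), known as a repressor of chlorophyll synthesis in the dark, fell at 1000 µM by -0.51 ± 0.12 on the log2 scale (adjusted p = 0.00362, held in 13 of 13). HY5 (AT5G11260), a light-signalling factor that promotes it, rose by 0.40 ± 0.15 (adjusted p = 0.0486), a call that held in 5 of 13 alternatives, with an adjusted p up to 0.397. It was lost with upper quartile scaling, DESeq2, the replicate block and only the 2 groups compared, and without control replicate 2, either 100 µM library or 1000 µM replicate 2. The remaining calls, named after their values were seen, were EIN3 (AT3G20770), an ethylene-signalling factor, with a rise of 0.25 (adjusted p = 0.0456), PIF5 (AT3G59060) with a fall of -0.52 (0.0126) and RVE1 (AT5G17300), a clock-related MYB-like factor, with a fall of -0.34 (0.0484). They held in 5, 10 and 3 of 13 alternatives, with adjusted p up to 0.31, 0.208 and 0.329. PIF5's call was lost with DESeq2, without control replicate 2 and without 1000 µM replicate 1, and those of EIN3 and RVE1 were lost without any one of the 4 control and 100 µM libraries, with RVE1's also lost without either 1000 µM library. Both were also lost with DESeq2, the replicate block and only the 2 groups compared, EIN3's with upper quartile scaling and RVE1's with RLE scaling.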

How the data were processed

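RNA-seq libraries of 3 groups, 2 per group, were grouped by the treatment in the labels. The deposited values are whole-number read counts per gene, used as the authors deposited them. The submitters' processing notes name Bowtie2 2.2.3, TopHat2 2.0.12, HTSeq 0.6.1, DESeq 1.18.0 and TAIR10; their options are not stated there, nor is strand use in counting. Low-count genes were removed with filterByExpr (14298 removed, 18380 tested), libraries were scaled with TMM, and all 6 were fitted together in edgeR 4.0.16 (R 4.3.3; glmQLFit and glmQLFTest, group as the only term, 3 residual and 14.1 prior degrees of freedom). The SE was taken as the size of the log2 change over the root of the test's F. The common biological coefficient of variation was 7.78%, and the fit was tested on simulated data. DESeq2 1.42.0, other scalings and filters, a replicate block and leaving out each library were alternatives, 13 in all. Names, exon lengths and promoters came from RefSeq's TAIR10.1, which held 31912 of the 32678 identifiers; 0 members had a stretch of 50 exonic bases repeated elsewhere in the genome.

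The members and lists were chosen with earlier results of these data known. Named are all members, up to 4 genes per other list with the smallest adjusted p at 1000 µM and up to 2 at 100 µM among those called, and PORA, CHLI2, HEMA2, FC1, FC2, GLK1, GLK2 and HY5 in any case. The ratios between genes, the share among genes as abundant as CAO, and the naming of EIN3, PIF5, RVE1 and single markers were added after values were seen.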

Additional observations from a re-analysis of the deposited data

How the results depend on the processing

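The counts of genes called moved most. Against 610 at 100 µM, DESeq2 called 335, no filter 1091 and a fit of only the 2 groups compared 1697, and leaving out one library gave 101 (without 100 µM replicate 2) to 1757 (without 1000 µM replicate 2). Against 5442 at 1000 µM, DESeq2 called 3328, and leaving out one library gave 3318 (without control replicate 2) to 6684 (without 1000 µM replicate 2). Against 2932 between the doses, DESeq2 called 1625, and leaving out one library gave 1158 (without 100 µM replicate 1) to 4442 (without 1000 µM replicate 2). Leaving out one library gave 0 to 1 members lower at 100 µM, 4 (without control replicate 2) to 8 at 1000 µM and 2 (without either 100 µM library) to 8 between the doses, and 0 higher in each. With upper quartile scaling 44.3% and 44% of the genes called at 1000 µM against the control and against 100 µM were higher, beside 51.2% and 54.2% with TMM (1310 higher and 1670 lower between the doses, beside 1590 and 1342).

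Same-numbered libraries did not deviate together (correlations of 0.03, -0.03 and -0.07), so the numbers were not taken to pair them. The replicate block called 446, 4959 and 2508 genes and 0, 8 and 6 members lower at 100 µM, at 1000 µM and between the doses. Of 416 alternative values for the named genes at 1000 µM, 320 kept direction and side of the threshold, 95 lost a call and 1 changed sign. Of 376 at 100 µM, 340 kept both, 18 lost a call, 2 gained one and 16 changed sign, the last all of changes that had not passed. Of 143 between the doses (members and GLK1), 120 kept both, 17 lost a call, 4 gained one and 2 changed sign.

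The sign changes were near 0. At 100 µM DVR had 0.00 with RLE scaling, upper quartile scaling and DESeq2, and at 1000 against 100 µM GUN4 had -0.01 with upper quartile scaling. With one library left out, the ranges at 100 µM were -0.04 to 0.02 for CHLH, -0.08 to 0.02 for PORB, -0.14 to 0.06 for CAO, -0.11 to 0.07 for CHLI2, -0.18 to 0.09 for HEMA2, -0.11 to 0.23 for HY5, -0.01 to 0.04 for LIL3:1, -0.10 to 0.09 for DVR, -0.05 to 0.01 for CHLP and -0.01 to 0.14 for HO2. They were -0.16 to 0.05 for GLK2 at 1000 µM and -0.02 to 0.12 for GUN4 between the doses. The causes were not tested. With 2 libraries a group, each fit that leaves out a library assumes that the lone sample varies like the others, and changes of the size seen in CRD1 may be missed.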
